A study of Bos taurus with 36 samples.

Results

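The HOX cluster genes of male bovine fetuses at Day 42 of gestation were followed across heart, gonad and liver libraries and across the blood of the dams that carried these fetuses. Members were all genes of the count table whose bovine RefSeq symbol consists of HOX, a cluster letter from A to D and a number, which gave 39 of 35092 genes: 11 in the HOXA cluster, 10 in HOXB, 9 in HOXC and 9 in HOXD. All 10 fetuses came from embryos of 7 days. In the ET_D7 group (5 fetuses) the embryo entered a recipient on Day 7 of its estrous cycle, the synchronous transfer, and in the ET_D9 group (5 fetuses) a recipient on Day 9, the asynchronous transfer. Fetuses are numbered here from 1 to 10 by rising weight. The ET_D7 fetuses (1 to 5) weighed 1.253 to 1.37 g and the ET_D9 fetuses (6 to 10) 1.396 to 1.69 g, so weight and transfer group did not overlap and cannot be told apart. The 36 libraries were 9 of heart (none from fetus 7), 9 of gonads (none from fetus 2), 8 of liver (none from fetuses 6 and 7) and 10 of maternal blood.

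HOX genes encode homeodomain transcription factors that give cells their position along the head-to-tail axis. Within a cluster the genes lie in the order in which they are used in the embryo: low-numbered genes are active early and towards the head, high-numbered genes later and towards the tail and the urogenital region, and cells keep much of this code in the organs they form. The proteins bind DNA together with partners of the PBX and MEIS families, and in adult blood the anterior and middle HOXB genes and HOXA9 are best known from stem and progenitor cells. Here paralog groups 1 to 4 are called anterior (12 members), 5 to 8 middle (11 members) and 9 to 13 posterior (16 members).

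The libraries held between 18231089 and 40812354 counts. Some columns were not independent: the gonad column of fetus 8 equalled that of fetus 6 times 1.2736 for most genes, and the liver columns of fetuses 1 and 2 differed by less than counting noise, so each of these pairs was averaged and counted as 1 sample, which left 9 heart, 8 gonad, 7 liver and 10 blood columns. The averaged columns are named gonad 6/8 and liver 1/2. Among the 30 HOX genes with at least 30 counts in the gonad of fetus 6, 28 kept that ratio within 2%, while HOXB3 had 603 counts in fetus 6 and 1037 in fetus 8, and HOXC11 had 45 and 0. The columns gonad 6/8, liver 9 and heart 1 also lay within counting noise of weighted sums of other columns of their organ, mainly from the same transfer group. They were kept as samples in the main fits, so the spread within a group may be understated there. Results that change without them are named below. Expression is printed in CPM, that is, TMM-normalised counts relative to library size, jointly for the organs and separately for blood, whose libraries were made with another kit, so that levels are not compared between organs and blood. CPM is not corrected for gene length and ranks no gene against another. In bulk tissue, fewer cells of a type and less RNA per cell cannot be told apart. All 8 heart markers in heart and all 8 liver markers in liver had medians of at least 1 CPM. In the libraries labelled gonads, 4 of 10 gonad markers had such a median, and the 10 summed to 98.9 to 176 CPM. WT1, which kidney also expresses, made up most of this sum with 87.3 to 164 CPM, and STAR lay at 5.37 to 12.2, SOX9 at 0.373 to 6.08 and AMH at 0.979 to 2.23 CPM. The other 6 were low, with GATA4 at most at 0.120 CPM, DMRT1 at 0.274, DDX4 at 0.255, CYP17A1 at 0.347, INSL3 at 0.160 and NR5A1 at 1.10 CPM. Of the kidney and mesonephros markers, 11 of 12 kidney and mesonephros had a median of at least 1 CPM, with PAX2 at 103 to 137 CPM and a summed level of 497 to 648 CPM. These libraries are called gonads as labelled, and what their cells were was not tested.

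HOX expression differed in extent between the sources. The summed HOX level was 1921 CPM in the lowest gonad library, 2237 CPM at the median and 2794 CPM in the highest. In the liver it was 31.0, 48.7 and 98.8 CPM, and in the heart 5.92, 17.8 and 127 CPM. The lowest gonad library thus lay above every heart and liver library. With a median of at least 1 CPM taken as expressed, 28 of the 39 members were expressed in gonads, 8 in liver, 4 in heart and 2 in maternal blood, where 41.1%, 42.5%, 40.7% and 38.4% of all genes passed. HOXA4, HOXA5 and HOXB13 held 0 counts in all 36 columns. The reference gene models of HOXA4 and HOXA5 overlap that of HOXA3, and HOXA5 also that of HOXA6. In all, 16 members overlap another gene model and 14 another HOX member, among them HOXB3 with HOXB4, HOXB5 and HOXB6, HOXD3 with HOXD4, and HOXD10 with HOXD11, and reads of such pairs may be divided or lost in counting.

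**Figure D1:**
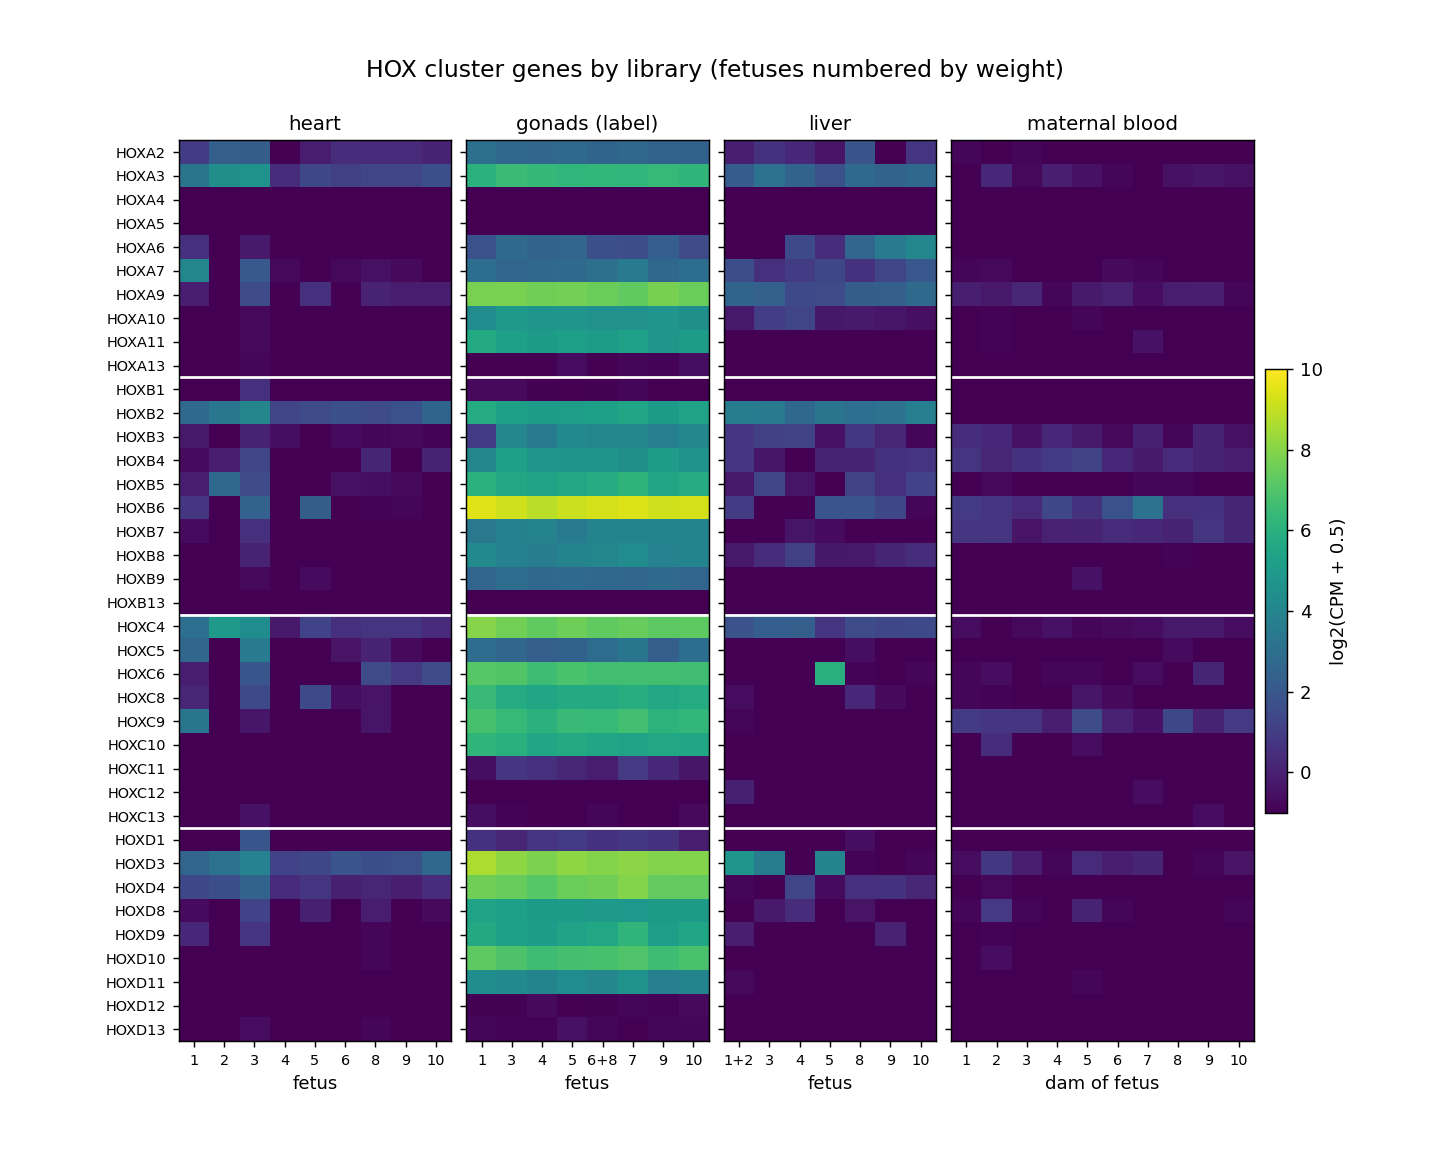
Level of the HOX genes shown (rows, by cluster and paralog group) in each library (columns, by tissue and fetus or dam), as log2(CPM + 0.5). The gonad columns are filled from the anterior to the posterior genes up to group 11, while heart and liver columns hold fewer members, at lower levels.

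The heart expressed only anterior members under this rule: HOXB2, HOXA3, HOXD3 and HOXC4. The liver expressed 4 anterior (HOXA3, HOXB2, HOXB3, HOXC4), 3 middle (HOXA6, HOXA7, HOXB6) and 1 posterior gene (HOXA9), and no HOXD gene by its median. HOXD3 was at 26.8, 11.6 and 14.8 CPM in livers 1/2, 3 and 5, but at most 0.0645 CPM in the other columns. Its median was 0.0645 CPM after livers 1 and 2 were averaged, while its median count over the 8 deposited libraries was 100.5. The gonads expressed 9 anterior, 10 middle and 9 posterior members, with 7 from HOXA, 8 from HOXB, 6 from HOXC and 7 from HOXD. The highest paralog group expressed in gonads was 11 in HOXA and HOXD, 10 in HOXC and 9 in HOXB. Posterior genes made up 24.2% to 26.8% of HOX counts in the gonad libraries, 2.8% to 13.5% in the liver and 0% to 15.0% in the heart.

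**Figure D2:**
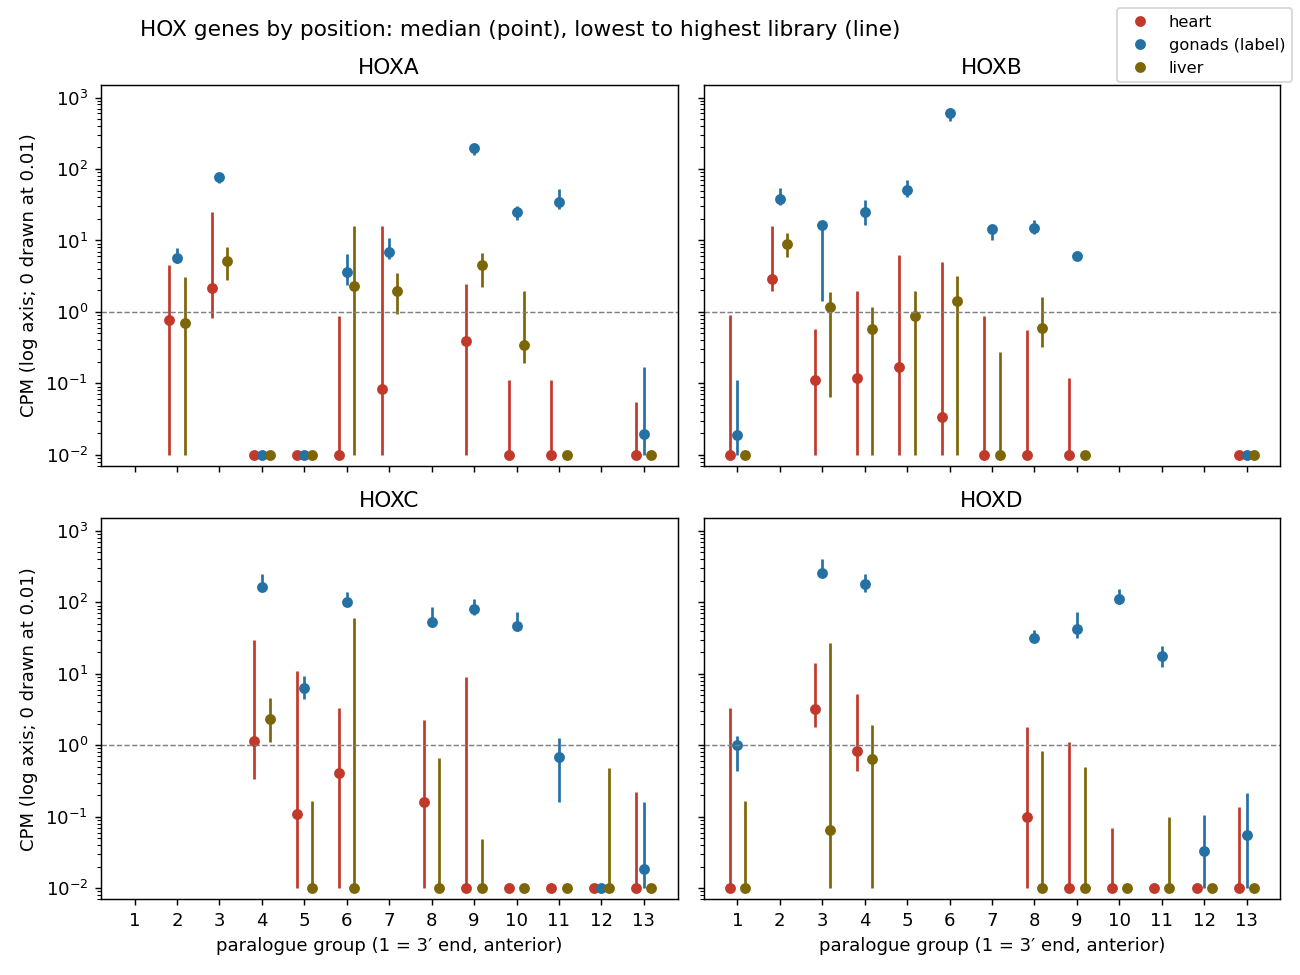
Median CPM (points; lines join the lowest and highest library) of the HOX genes shown against their paralog group, 1 panel per cluster, for heart, gonads and liver on a log axis. The gonad points stay high up to group 11 in HOXA and HOXD and group 10 in HOXC, and the heart and liver points lie below them for most members.

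In the gonads the anterior genes HOXD3 and HOXD4, which pattern the hindbrain and neck region in the embryo, stood at 229, 259 and 402 CPM and at 139, 178 and 249 CPM (lowest, median and highest of 8 columns). HOXC4 ranged from 149 over 165 to 252 CPM. HOXB6, a middle gene, ranged from 468 over 605 to 714 CPM. The posterior HOXA9 ranged from 159 over 200 to 223 CPM. None of these 5 varied more than 2-fold between columns. The genes known for their part in kidney and genital tract formation, HOXA10, HOXA11, HOXC10, HOXD10 and HOXD11, were also present in every gonad column. HOXD10 had 94.7, 111 and 152 CPM and HOXC10 40.2, 46.3 and 73.5 CPM. HOXA11 had 27.5, 34.5 and 52.3 CPM and HOXD11 12.6, 17.9 and 24.5 CPM. Beyond group 11 the signal ended: HOXA13, HOXC13, HOXD12 and HOXD13 stayed at or below 0.215 CPM in every gonad column, and HOXC12 and HOXB13 were at 0. HOXB1, at the other end of its cluster, reached 0.113 CPM at most.

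Gonads against heart was tested with edgeR's quasi-likelihood test on all 3 organs, with Benjamini-Hochberg adjustment over 25054 genes. Of the 36 members tested, 28 were higher in gonads, against 22.9% of all genes, and 0 were lower, against 22.7% of all genes. DESeq2 called 29 higher and 0 lower. The median log2 fold change of the members was 6.11, and that of all genes 0.09. By position, 9 of 11 anterior, 8 of 10 middle and 11 of 15 posterior members were called higher. The median log2 fold changes over all tested members of these positions, called or not, were 3.89, 6.49 and 7.60. The libraries of both organs did not overlap for 27 members, all higher in gonads, which 11.9% of all genes also showed. Of the 28 called, 25 had at least 1 CPM at the gonad median, while HOXC11 and HOXD12 were below it. Some other lists also differed between the organs. Of the 12 kidney and mesonephros markers, 10 were higher and 2 lower in gonads than in heart. Against liver 11 were higher and 1 lower. Of all genes, 22.9% were higher and 22.7% lower against heart, and 30.0% and 32.6% against liver. The 8 neural markers summed to 53.2 to 110 CPM in gonads, against 15.5 to 37.6 CPM in heart and 9.47 to 21.4 CPM in liver, and 5 of them were higher and 0 lower in gonads in both comparisons. Of the 8 body wall and skeletal markers, 2 had a median of at least 1 CPM in gonads and 1 was higher and 1 lower in each comparison. Their sum was 506 to 930 CPM in gonads, 28.4 to 110 CPM in heart and 9.81 to 38.5 CPM in liver. The higher one was the cartilage collagen COL2A1, with log2 fold changes of 3.67 against heart and 5.52 against liver. The lower one was PAX9, with -1.51 and -3.77. The median log2 fold change of the 8 was -0.05 against heart and -0.46 against liver, so the list did not rise as a whole. The part of these lists and of the kidney markers in the HOX levels was not tested.

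The largest differences among expressed members were in posterior genes that the heart libraries barely held. HOXC10 (gene ID 100847795) had 0 counts in all 9 hearts, so that it was at least 3649-fold higher in gonads (log2 fold change 13.70, SE 0.348, adjusted p = 5.01e-12 by edgeR). HOXD11 (gene ID 613983) also had 0 counts in every heart and was at least 1274-fold higher (12.19, SE 0.599, edgeR adjusted p = 5.7e-12). Both bounds set the mean gonad CPM against a floor of 3 counts over all hearts on the same scale and cover counting error only. With 0 counts in an organ, the log2 fold change rests on a small prior count that edgeR adds. It and its SE then do not measure a fold, and only the bound does. Of the counts from 1 to 20, 55.7% to 71.5% were even in hearts and 47.2% to 76.6% in livers, so that bounds and intervals hold only if each count is 1 read. HOXD10 (gene ID 540251) had 2 heart counts in all, both in fetus 8, a ratio of 12270 with a 95% counting interval from 3397 to 101300 (13.09, SE 0.312, edgeR adjusted p = 9.73e-18). HOXA11 (gene ID 100336578) and HOXA10 (gene ID 784386) were found in the heart of fetus 3 alone, at 0.110 CPM each. Their log2 fold changes were 10.69 (SE 0.485, edgeR adjusted p = 2.21e-13) and 10.16 (SE 0.64, edgeR adjusted p = 6.64e-13). HOXB6 (gene ID 112442654) differed by 9.01 (SE 0.937, edgeR adjusted p = 9.73e-09), with hearts at 0 to 4.96 CPM.

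Among the members not called between gonads and heart, HOXA7 and HOXC5 had appreciable levels. HOXA7 lay at 5.48 to 10.8 CPM in gonads, and among hearts at 16.2 CPM in fetus 1, 3.69 CPM in fetus 3 and at most 0.207 CPM elsewhere. HOXC5 lay at 4.48 to 9.29 CPM in gonads, and in hearts at 10.9 CPM in fetus 3, 5.74 CPM in fetus 1 and at most 0.551 CPM elsewhere. Each gene thus reached or passed the gonad range in at least 1 of these hearts, and the other 7 hearts lay below all gonads. The edgeR log2 fold changes were 1.67 for both genes, with SEs of 0.935 and 0.95 and adjusted p of 0.148 and 0.154. A paired fit with the fetus as a block called both genes higher in gonads. That fit used the columns as deposited, so gonads 6 and 8 and livers 1 and 2 entered it as separate samples. HOXA7 was also called by DESeq2 and without fetus 1, and HOXC5 without fetus 3. The remaining members not called were HOXA13, HOXB1, HOXC12, HOXC13, HOXD1 and HOXD13.

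Gonads against liver gave 32 of 36 members higher in gonads, against 30.0% of all genes, and 1 lower, against 32.6%. The median log2 fold change was 5.41 over the members and 0 over all genes. It was 5 for anterior, 6.58 for middle and 7.52 for posterior members. The libraries did not overlap for 28 members, which 17.0% of all genes showed in the same direction. The lower member was HOXC12, whose signal was 20 counts in the liver of fetus 2 and 0 in every gonad column. That call was lost without fetus 2, under DESeq2 and with the fetus as a block in a paired fit, each of which left 0 lower members. HOXC9 (gene ID 100295214), a posterior gene, lay between 66.5 and 112 CPM in gonads and had 2 counts in the liver of fetus 1 and 0 in the others, which is 1 count after averaging fetuses 1 and 2, a ratio of 12050 with a 95% counting interval from 2164 to 476100 (log2 fold change 12.92, SE 1.56, edgeR adjusted p = 6.68e-08). The livers held 0 counts of HOXD10, HOXC10, HOXA11 and HOXB9, which were at least 5480-fold, 2444-fold, 1714-fold and 288.6-fold higher in gonads. Their edgeR log2 fold changes were 14.87 (SE 0.4, adjusted p = 2.24e-17), 13.70 (SE 0.397, adjusted p = 8.16e-12), 13.19 (SE 0.663, adjusted p = 4.91e-13) and 10.62 (SE 0.896, adjusted p = 1.94e-09). These values also rest on the added prior count. HOXD11 was 9.97 higher on the log2 scale (SE 0.581, edgeR adjusted p = 2.99e-11).

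HOXA6 was the expressed middle gene that did not separate gonads from liver. Its gonad columns lay at 2.41 to 6.40 CPM, while its livers spread from 0 to 16.2 CPM, on both sides of the gonads (edgeR log2 fold change -0.34, SE 0.952, adjusted p = 0.768). HOXA7 lay at 5.48 to 10.8 CPM in gonads and at 0.930 to 3.48 CPM in livers, without overlap, but was not called (edgeR log2 fold change 1.89, SE 1.03, adjusted p = 0.111). DESeq2 and the edgeR fit of only these organs called HOXA7 higher in gonads. HOXB1 was not called by edgeR on all 3 organs.

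Fewer members were called between heart and liver. The edgeR test called 8 of the 36 members higher in heart, against 27.0% of all genes, and 8 lower, against 30.3%. The median log2 fold change over the members was 0.56. The 8 members higher in heart (among them HOXB1, HOXB9, HOXC5, HOXC9, HOXD1, HOXD4 and HOXD13) all had medians under 1 CPM in both organs. With the fetus as a block in a paired fit, 2 of them passed (HOXC5 and HOXC9), and the same 2 passed without fetus 3. DESeq2 called 3. HOXB1 (33 counts) and HOXD1 (120 counts) were present in the heart of fetus 3 and at 0 in the other 8 hearts.

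Of the 8 members lower in heart, HOXA6, HOXA9, HOXB2 and HOXB3 reached 1 CPM at the liver median. HOXA9 (gene ID 510459) had 2.23, 4.55 and 6.58 CPM in liver and 0, 0.392 and 2.48 CPM in heart, with an overlap at fetus 3 (log2 fold change -2.78, SE 0.476, edgeR adjusted p = 1.63e-05). HOXA6 was at 0 in 7 of 9 hearts and at 0.358 and 0.879 CPM in fetuses 3 and 1 (-5.21, SE 1.11, edgeR adjusted p = 0.000263). HOXB3 had 0.0645, 1.17 and 1.88 CPM in liver and 0, 0.111 and 0.578 CPM in heart (-2.51, SE 0.639, edgeR adjusted p = 0.00158). HOXB2, a hindbrain gene, had 5.92, 9.00 and 12.9 CPM in liver and 1.96, 2.93 and 15.8 CPM in heart. Its call (-0.81, SE 0.336, edgeR adjusted p = 0.0424) lay close to the threshold, and leaving out fetus 1, 4, 5, 6, 8, 9 or 10 ended it (adjusted p up to 0.109). HOXA10 was the member whose hearts and livers did not overlap, with livers at 0.194 to 1.95 CPM, a pattern that 12.5% of all genes had in the same direction. The HOXC6 call rested on the liver of fetus 5, and without that fetus HOXC6 was called higher in heart.

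The heart libraries differed from each other more than the organ average shows. HOXA3 had 8.79, 21.0 and 24.7 CPM in fetuses 1, 2 and 3 and 0.833 to 2.71 CPM in the other 6 hearts. HOXC4 had 7.68, 29.5 and 19.9 CPM in the same 3 hearts and 0.333 to 1.85 CPM in the others. HOXB2 had 6.27, 9.60 and 15.8 CPM there and 1.96 to 5.36 CPM elsewhere. HOXA2 and HOXD4 were also highest in these 3 hearts, which makes 5 of the 8 members tested in heart, and 3.26% of all genes tested had these hearts above the other 6 without overlap. The split into fetuses 1 to 3 and the rest was chosen after these values were seen. The column of heart 1 lay within counting noise of a weighted sum, mainly of hearts 2, 3, 4 and 5. It may therefore not be an independent heart beside hearts 2 and 3. HOXD3 overlapped, with 5.51, 8.18 and 14.02 CPM in fetuses 1 to 3 and up to 6.01 CPM in fetus 10.

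**Figure D3:**
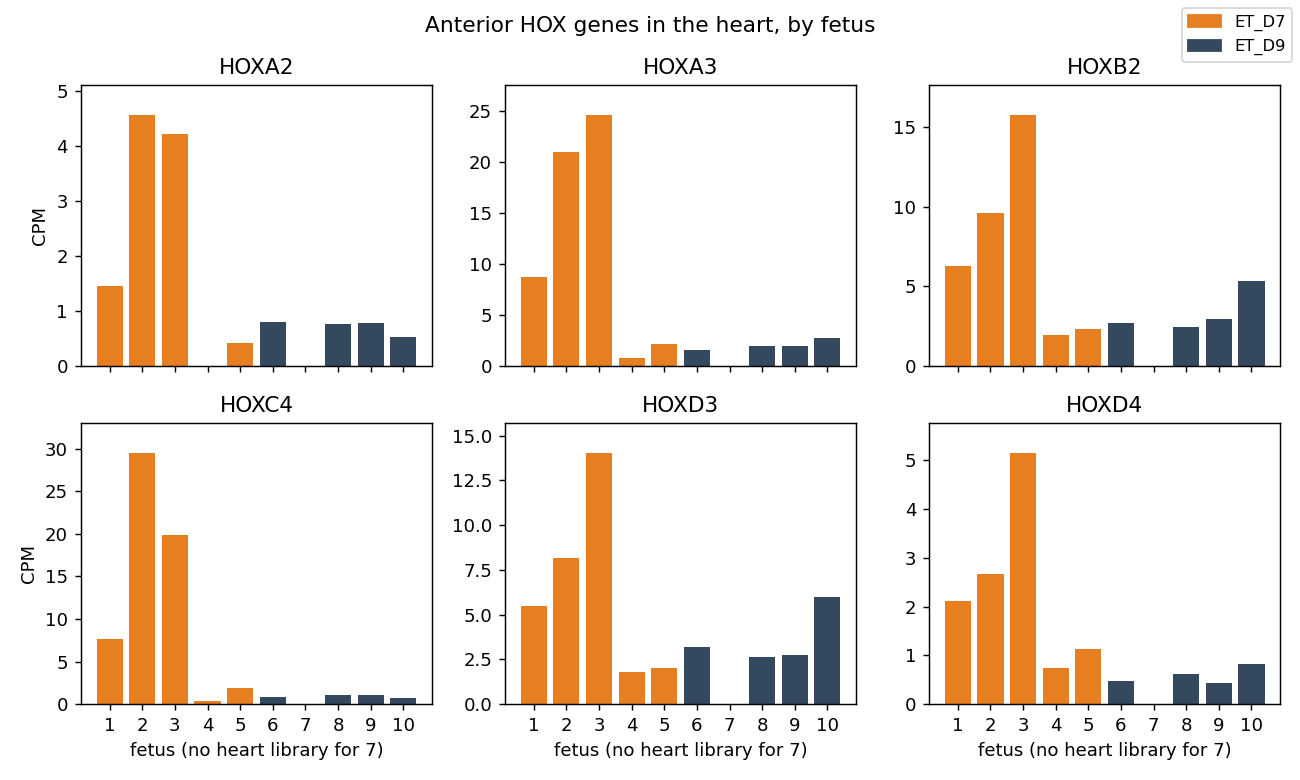
CPM of 6 HOX genes in each heart library, with fetuses ordered by weight (bars; ET_D7 and ET_D9 in different colours; fetus 7 has no heart library). Fetuses 1 to 3 stand highest for HOXA2, HOXA3, HOXB2, HOXC4 and HOXD4, and fetus 10 reaches 6.01 CPM for HOXD3.

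The heart of fetus 3 held counts of the most members. It had the highest level of 17 of the 24 members with at least 10 counts in a heart, where 13.9% of all genes with such a count were highest in this heart. At least 5 of the 24 met that minimum through the heart of fetus 3 alone, with fewer than 3 counts in every other heart. Of the 8 members with at least 10 counts in at least 4 hearts, 6 were highest in fetus 3, against 12.2% of all such genes. The heart of fetus 2, with 82.1 CPM in sum, held counts of 8 members, of which 92.5% of counts were anterior, against 30 members in fetus 3. The heart of fetus 1 instead stood out for HOXA7 (276 counts, 16.2 CPM) and HOXC9 (156 counts, 9.14 CPM). In hearts 2, 4 and 5, to whose weighted sum with heart 3 its whole profile was close, HOXC9 was at 0 and HOXA7 at 0 to 2 counts. Other lists also differed between the hearts. Among the 8 body wall and skeletal markers, PAX1, a marker of the forming vertebral column, was at 6.003 CPM in the heart of fetus 3 and at 0 in the other 8. PAX9 there was at 5.09 CPM against at most 1.42 CPM. Both were singled out after their values were seen. The 8 body wall and skeletal markers, of which 2 reached a median of 1 CPM in heart, summed to 28.4 to 110 CPM and were highest in fetus 2. The 8 neural markers, of which 3 reached that median, summed to 15.5 to 37.6 CPM and were highest in fetus 3. So were the kidney and mesonephros list (33.7 to 53.0 CPM), the erythroid list (123 to 197 CPM) and the HOX partner genes (516 to 696 CPM). The HOX regulators and the heart, liver, gonad and blood cell markers were highest in other hearts. The mitochondrially encoded share of counts was 45.1%, 57.3% and 23.5% in hearts 1, 2 and 3 and 17.1% to 41.5% in the others. The part of these in the HOX levels was not tested.

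In liver 4 members reached 1 CPM in every column. HOXB2 ranged from 5.92 to 12.9 CPM, HOXA3 from 2.80 to 8.19, HOXA9 from 2.23 to 6.58 and HOXC4 from 1.09 to 4.53 CPM. Their SDs of log2(CPM + 0.5) were 0.3787, 0.4435, 0.506 and 0.5784 in this order, against a median of 0.4388 over all genes tested in liver. Other members were present in some fetuses and near 0 in others. HOXC6 had 1888 counts in the liver of fetus 5 and 0 or 1 in each of the other 7 libraries. HOXD3 had 406, 695, 200 and 459 counts in fetuses 1, 2, 3 and 5, and 0, 1, 0 and 1 in fetuses 4, 8, 9 and 10. HOXA6 had 1, 0 and 0 counts in fetuses 1 to 3, 33 and 25 in fetuses 4 and 5, and 132, 217 and 251 in fetuses 8 to 10. HOXD3 and HOXA6 were thus nearly exclusive of each other, fetus 5 excepted. Counts of at most 2 in some libraries and at least 300 in all the rest were found for 333 genes in liver, HOXC6 among them, and for 1 gene in heart, 1 in gonads and 2 in blood.

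**Figure D4:**
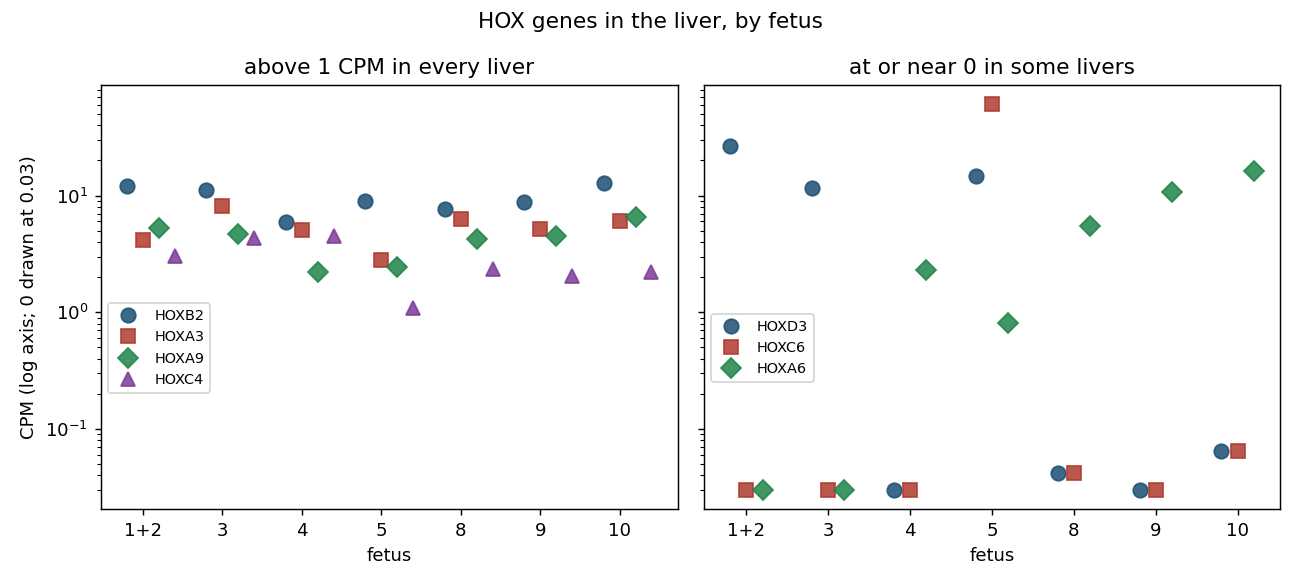
HOX genes in liver by fetus: CPM of members with a level in every library (left) and of HOXA6, HOXC6 and HOXD3 (right), on a log axis with 0 drawn at 0.03. HOXB2 stays between 5.92 and 12.9 CPM, while HOXC6 reaches 60.7 CPM in fetus 5 and at most 0.0645 CPM in any other column.

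The spread between fetuses was measured as the SD of log2(CPM + 0.5) over the columns of an organ, for genes holding 10 or more counts in 4 or more columns. In gonads the median SD of the 30 members was 0.257, against 0.267 for all genes, and 12 members lay above the all-gene median. HOXB9 varied least (0.109) and HOXB3 most (1.09). In heart the median SD of 8 members was 1.02 against 0.327, and all 8 lay above the all-gene median, led by HOXC4 (1.89) and HOXA3 (1.54). In liver it was 0.628 over 13 members against 0.439, with 12 above and HOXA6 highest (2.06). In blood it was 0.445 over 7 members against 0.270, with all 7 above and HOXB6 highest (0.884). Most members in heart, liver and blood had low counts, and the part of counting error in these SDs was not tested.

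Fetal weight was tested in each tissue by edgeR with a natural cubic spline of 3 degrees of freedom. Each averaged column entered at the mean weight of its fetuses, a weight that neither fetus had. In gonads 1 of 30 members passed, against 5.28% of all genes, and 5 had an unadjusted p under 0.05, against 22.3%. The member was HOXB3 (gene ID 618214; p = 2.76e-05, edgeR adjusted p = 0.00331), an anterior gene that overlaps HOXB4, HOXB5 and HOXB6 in the annotation. HOXB3 also left the common ratio of the averaged gonad pair, with 603 counts in fetus 6 and 1037 in fetus 8. Its gonad of fetus 1, the lightest, had 54 counts and 1.44 CPM, and the other 7 columns had 11.6 to 18.2 CPM. Without fetus 1 its edgeR adjusted p was 0.978, and no member passed. No member passed without fetus 6 (HOXB3 adjusted p = 0.187 by edgeR), with the columns as deposited (0.178) or with a linear weight term (0.978). Without gonads 6 and 8, 4 members passed (HOXA6, HOXB3, HOXC11 and HOXD9), where 17.6% of all genes did.

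In heart 0 of 8 members passed in the edgeR weight fit, against 0% of all genes, and 0 had an unadjusted p under 0.05 where 7.99% of all genes did. DESeq2 called 0. The smallest p values were 0.0728 for HOXC4 (edgeR adjusted p = 0.638) and 0.113 for HOXD4 (edgeR adjusted p = 0.683). With a linear weight term 0 members passed in heart, against 6.77% of all genes. The log2 slopes per 0.1 g were -1.11 for HOXC4 (edgeR adjusted p = 0.0801) and -0.54 for HOXD4 (edgeR adjusted p = 0.126). Only HOXC6 had a rising slope (0.49, edgeR adjusted p = 0.47). In liver 0 of 13 members passed, against 1.71% of all genes, 1 had an unadjusted p under 0.05, against 10.7% (HOXA6, p = 0.00453, edgeR adjusted p = 0.173), and DESeq2 called 0. HOXA6 passed without fetus 8, 9 or 10 (edgeR adjusted p from 1.48e-09 to 2.94e-05), each of which leaves 6 columns for a spline of 3 degrees of freedom, and it did not pass without any of the other fetuses. HOXB2, the next in liver, had p = 0.391 (edgeR adjusted p = 0.776).

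Between the transfer groups 0 HOX genes passed in any tissue by edgeR. In heart, 0.0492% of all genes passed, and 3 of 8 members had an unadjusted p under 0.05, against 24.6% of all genes. HOXD4 was at 2.11, 2.67, 5.15, 0.750 and 1.13 CPM in ET_D7 hearts 1 to 5 and at 0.486, 0.620, 0.443 and 0.817 CPM in ET_D9 hearts 6, 8, 9 and 10. The groups overlapped at fetuses 4 and 10, and the log2 difference ET_D9 minus ET_D7 was -2 (SE 0.556, edgeR adjusted p = 0.078). HOXC4 differed by -3.64 (SE 1.06, edgeR adjusted p = 0.0839) and HOXA3 by -2.48 (SE 0.856, edgeR adjusted p = 0.12). DESeq2 called these 3 members (adjusted p = 0.0106 for HOXD4 and 0.00723 for HOXC4), where it called 13.3% of all genes. All 3 were highest in the hearts of fetuses 1 to 3, which belong to ET_D7.

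In gonads 0 of 30 members passed between the transfer groups by edgeR, against 0.0113% of all genes, with 2 at an unadjusted p under 0.05, against 13%, and 0 called by DESeq2. HOXA6 differed by -0.72 (SE 0.277, edgeR adjusted p = 0.313) and HOXC10 by -0.36 (edgeR adjusted p = 0.385). In liver 0 of 13 passed by edgeR, against 2.17% of all genes, with 1 at an unadjusted p under 0.05, against 13.3%, and 0 called by DESeq2. Liver HOXA6 was 3.68 higher in ET_D9 on the log2 scale (SE 1.2, edgeR adjusted p = 0.199). Every ET_D9 column lay above every ET_D7 column for this gene, which 9.35% of all genes tested showed. Of the ET_D9 columns, liver 9 lay within counting noise of a weighted sum of livers 8 and 10, so these columns may not be independent. HOXC4 differed by -0.72 (SE 0.539, edgeR adjusted p = 0.632).

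The partner and regulator genes of HOX factors were tested in the same organ fit. Of 9 partner genes of the PBX, MEIS and PKNOX families, 6 were higher and 1 lower in gonads than in heart, 8 higher and 0 lower in gonads than in liver, and 7 higher and 0 lower in heart than in liver. Among all genes the shares higher and lower were 22.9% and 22.7%, 30.0% and 32.6%, and 27.0% and 30.3% in these comparisons. MEIS1 was 2.51 above heart (SE 0.159, edgeR adjusted p = 7.76e-13) and 4.45 above liver (SE 0.193, edgeR adjusted p = 1.3e-16) in gonads on the log2 scale. MEIS2 was 0.79 above heart and 4.42 above liver. The lower partner was PBX4, at -2.19 against heart (edgeR adjusted p = 0.000355). Of 15 genes that regulate HOX clusters, such as CDX, Polycomb and KMT2 genes, 7 were higher and 1 lower in gonads than in heart, 9 and 2 against liver, and 6 higher and 2 lower in heart than in liver, where the shares of all genes are those given for the partners. The lower ones in gonads were CDX1 against heart (log2 fold change -2.73, SE 0.97, edgeR adjusted p = 0.0234), and CDX2 (-3.43, SE 1.16, edgeR adjusted p = 0.0242) and CTCF (-0.41, SE 0.116, edgeR adjusted p = 0.00374) against liver. Of the 15 regulators, 4 stayed below 1 CPM in every gonad library, 3 in every heart library and 3 in every liver library. A difference in such a gene can rest on few counts. EZH2 and CTCF were lower in heart than in liver, with log2 fold changes of -0.51 and -0.56. CBX2 and SUZ12, of the Polycomb complexes that keep HOX genes silent, were 1.14 and 1.16 higher in gonads than in heart. GDF11, a signal that sets posterior HOX expression in the trunk, was 1.53 higher in gonads than in heart and 3.15 higher than in liver (edgeR adjusted p = 0.00929 and 2.2e-05).

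Maternal blood held few HOX transcripts, 152 to 422 counts per library in all. Of the counts from 1 to 20 in blood, 83.8% to 87.9% were even, so that 1 count may not be 1 read. The summed level was 3.85, 6.19 and 11.5 CPM, highest in the dam of fetus 7. HOXC9 (0.226, 1.11 and 2.32 CPM) and HOXB6 (0.608, 1.08 and 8.09 CPM) reached 1 CPM at the median. HOXB4, a gene of blood stem cells, had 0.376, 0.721 and 1.87 CPM, HOXB7 0.243, 0.662 and 1.18 CPM, and HOXB3 0.0671, 0.432 and 0.876 CPM. HOXA9 reached 0.633 CPM, and HOXB2, expressed in all 3 fetal organs, was at 0 counts in every blood library. HOXB6 was high in the dams of fetuses 7 (8.09 CPM) and 6 (2.92 CPM) and at most 2.07 CPM in the others.

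**Figure D5:**
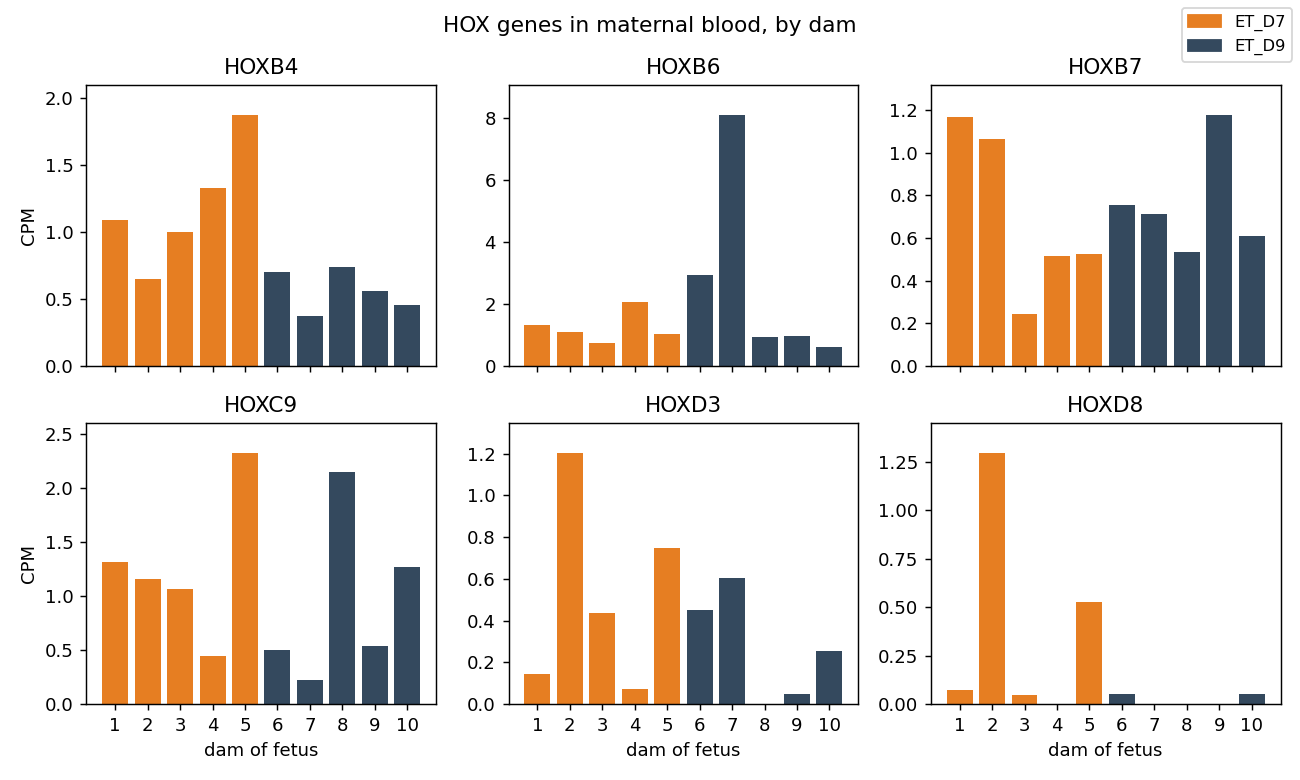
CPM of 6 HOX genes in the blood of each dam, ordered by the weight of its fetus (bars; ET_D7 and ET_D9 in different colours). HOXB6 peaks at 8.09 CPM in dam 7, and HOXD3 and HOXD8 are highest in dam 2.

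The blood of dam 2 differed from the rest in its HOX genes. HOXD8 was at 1.29 CPM there, at 0.525 CPM in dam 5 and at most 0.0730 CPM in the others. HOXC10 was at 0.832 CPM in dam 2, at 0.150 CPM in dam 5 and at 0 in the other 8. HOXD3 was at 1.20 and 0.749 CPM in dams 2 and 5 and at 0 to 0.602 CPM elsewhere. These same libraries held the striated muscle transcript MYH7 at 3338 and 1095 CPM, against at most 17.1 CPM in the others, and ACTN2 at 183 and 76.0 CPM, against at most 1.07 CPM. The part of muscle RNA in these HOX levels was not tested.

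In blood 0 of 7 members passed along fetal weight by edgeR, against 0.129% of all genes, with 1 at an unadjusted p under 0.05, against 9.77%, and 0 by DESeq2. HOXB6 had p = 0.0227 (edgeR adjusted p = 0.449), and HOXB4 p = 0.22 (edgeR adjusted p = 0.669). Between the dams of ET_D7 and ET_D9 fetuses, 0 of 7 passed by edgeR, against 0% of all genes, with 1 at an unadjusted p under 0.05, against 7.60%, and 0 by DESeq2. HOXB4 was at 1.09, 0.647, 0.998, 1.33 and 1.87 CPM in the ET_D7 dams and at 0.705, 0.376, 0.738, 0.564 and 0.456 CPM in the ET_D9 dams. The groups overlapped at dam 2, and the log2 difference was -1.06 (SE 0.384, edgeR adjusted p = 0.596). HOXB6 differed by 1.10 (SE 0.655, edgeR adjusted p = 0.724).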

How the data were processed

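RNA sequencing of 36 samples was used: heart, gonads and liver of 10 fetuses and whole blood of the dams. The authors prepared organ libraries with a stranded mRNA kit and blood libraries with another stranded kit, aligned reads with STAR 2.7.0b and counted them per gene with Subread 2.0.3, per the labels and the study's methods. The deposited values were whole-number counts per gene, with no normalisation stated. How columns close to multiples or sums of others arose is not given in the sources used here. Of 35092 gene IDs, 31630 matched the RefSeq table, whose assembly differs from that of the files, so no coordinates are given. Some genes entered the counts and fits but are not reported here by name. HOX members and all lists were chosen with earlier results of these data known.

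Groups came from the sample labels. Counts were fitted with edgeR 4.0.16 (R 4.3.3; TMM, quasi-likelihood test, Benjamini-Hochberg over all genes tested, threshold 0.05). The organ fit held 24 columns and every gene counted in any of these. Fits within a tissue took genes holding 10 or more counts in 4 or more columns. CPM were TMM-scaled. DESeq2 1.42.0, other filters and scalings, a fetus block and leaving out each fetus were alternatives. The fetus block was fitted to the columns as deposited, without averaging, wherever it is named. The tests were checked on simulated data. Columns averaged as 1 sample are named in the results. P-values measure the spread between these samples. Each SE printed with an edgeR log2 fold change was calculated from it and the quasi-likelihood F. It is the absolute log2 fold change divided by the square root of F. Animal IDs in the labels pair the organs of a fetus. Over 23 same-fetus pairs the deviations from the organ means correlated at -0.306 to 0.355 (median 0.0271), above 0.1 in 5.

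Genes with full statistics were, in each organ comparison, the 6 called members with the largest fold change and at least 1 CPM at the median of an organ, and in each fit over weight or transfer group the called members, or the 2 with the smallest p. A choice of 5 members per tissue by level per kb was replaced by CPM, since no exon lengths were used. Other members are named for values that the text singles out, chosen after their values were seen.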

Additional observations from a re-analysis of the deposited data

Results flagged for a closer look

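A library was taken as standing apart where its gap to the nearest other, divided by the range of the tissue, passed Dixon's 95% critical value. Of 69 HOX gene and tissue groups tested with at least 30 counts in a library, 21 passed. Chance gives about 1 in 20 for values of a normal spread, but a member low in most libraries entered through the library in which it was high, so that this rate does not apply to such members. By the same minimum, 7.03% of all genes passed in heart, 13.8% in gonads, 10.7% in liver and 13.3% in blood. With at least 30 counts in the median library, 0 of 4 members passed in heart, 6 of 30 in gonads, 0 of 6 in liver and 1 of 2 in blood, against 5.32%, 13.5%, 6.76% and 11.3% of all genes. The gonads of fetuses 6 and 8 and the livers of fetuses 1 and 2 entered as 1 column each.

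In heart 10 members had such a library. The heart of fetus 3 was highest for HOXA9 (2.478 CPM), HOXB1 (0.9087), HOXB4 (1.983), HOXB7 (0.8812), HOXD1 (3.304), HOXD4 (5.149) and HOXD8 (1.817 CPM). The heart of fetus 1 was highest for HOXA7 (16.17 CPM) and HOXC9 (9.139 CPM), and the heart of fetus 2 for HOXB5 (6.164 CPM).

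In gonads the library of fetus 1 was highest for HOXA11 (52.33 CPM), HOXC8 (87.15 CPM) and HOXD3 (401.8 CPM) and lowest for HOXB3 (1.44 CPM). The gonads of fetus 7 were highest for HOXA7 (10.83 CPM) and HOXD9 (73.23 CPM).

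In liver HOXA2 stood apart in fetus 8 (3.079 CPM) and HOXC6 in fetus 5 (60.7 CPM). In maternal blood HOXB6 stood apart in the dam of fetus 7 (8.091 CPM), and HOXC10 (0.832 CPM) and HOXD8 (1.294 CPM) in the dam of fetus 2. No explanation of these values was tested.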

How the results depend on the processing

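The calls of members higher in gonads than heart (28 to 31 when each fetus was left out) and than liver (30 to 32) moved by less than 1.5 times under every alternative run, and no named member changed sign. The single member lower in gonads than liver became 0 under DESeq2, under a filter of 10 or more counts in 8 or more libraries and with the fetus as replicate block, and ranged from 0 to 1 over the fetuses left out. The 8 members higher in heart than liver became 3 under DESeq2, 2 with the replicate block, 3 with only both organs in the fit and 4 without the heart of fetus 1, the gonads of fetuses 6 and 8 and the liver of fetus 9, and 2 to 8 over the fetuses left out. The block, fitted to the columns as deposited, kept the calls between organs of the members named with full statistics as called. It also called HOXA7 and HOXC5 higher in gonads than in heart, which the main fit did not. Between transfer groups DESeq2 gave 3 members in heart, and the columns as deposited gave 1 in liver (HOXD3). Along weight, gonads gave 0 members with a linear term, 0 with a linear term and transfer group, 0 with the columns as deposited, 4 without the columns close to sums of others, and 0 to 2 over the fetuses left out. Liver gave 1 with any count accepted (HOXC6), 1 without the column close to a sum (HOXA6), and 0 to 1 over the fetuses left out. Expressed members were 2 in heart, 4 in liver and 0 in blood when 1 CPM was required in every library, and 13 in liver and 4 in blood at a median of 0.5 CPM. With a pseudocount of 0.1 the median SD became 1.658 in heart, 1.292 in liver and 0.8812 in blood. Alternatives on columns as deposited, without columns close to sums and without the blood of dams 2 and 5 were chosen after seeing the data. A level per kb was not run. The cause of these changes was not tested. The libraries held 142 to 4596 HOX counts in heart, 445 to 3074 in liver and 152 to 422 in blood.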
